A study of Homo sapiens with 10 samples.

Results

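The H3K4me1 ChIP-seq peaks of MDAMB231 cells are described here. All rows of the deposited H3K4me1 peak list were taken, which gave 26771 peaks of the 128837 in the 4 peak lists of the series. MDAMB231 cells come from a triple-negative breast tumour and were grown in DMEM with 5% FBS, with no treatment named in the labels. The authors combined 2 H3K4me1 samples into 1 list, called against 1 ChIP input sample. Lists for H3K4me3 (18019 peaks), H3K27Ac (37495 peaks) and FAIRE (46552 peaks), each combined from 2 samples, are used for comparison; FAIRE enriches for nucleosome-depleted DNA. Each assay has a single list, so no value below has a replicate error, and 95% Wilson intervals cover counting over peaks only. Read depth is not given in the peak lists.

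H3K4me1 is the monomethylated form of lysine 4 on histone H3 and is deposited largely by KMT2C and KMT2D. It marks enhancers whether they are active or poised, and it lies beside active promoters, whose centre carries the trimethylated form H3K4me3. H3K27Ac is added by EP300 and CREBBP and separates active enhancers from poised ones.

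Sequence under the strongest H3K4me1 peaks is shown first, because the FAIRE centre narrows a broad peak to a short open stretch. The windows are 300 bases at FAIRE peak centres, read from GRCh37 (hg19), in the highest scored H3K4me1 peaks lying clear of every H3K4me3 peak. Each holds the letters TGACTCA, or TGAGTCA on the other strand, which AP-1 dimers of FOS and JUN proteins are known to bind; these letters are in capitals. Among the peaks eligible for display, the 4 windows come from those ranked 1, 2, 4 and 5 by score. Holding these letters was a condition for display, and the peak ranked 3 had no FAIRE window with them.
LIPA window, chr10:91037987-91038286, plus strand: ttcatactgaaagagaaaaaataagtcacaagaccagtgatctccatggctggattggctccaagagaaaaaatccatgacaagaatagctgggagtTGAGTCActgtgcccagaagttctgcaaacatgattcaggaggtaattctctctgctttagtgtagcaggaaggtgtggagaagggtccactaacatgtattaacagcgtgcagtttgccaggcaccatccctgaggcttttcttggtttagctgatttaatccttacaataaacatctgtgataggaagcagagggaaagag
AMOTL1 window, chr11:94527838-94528137, plus strand: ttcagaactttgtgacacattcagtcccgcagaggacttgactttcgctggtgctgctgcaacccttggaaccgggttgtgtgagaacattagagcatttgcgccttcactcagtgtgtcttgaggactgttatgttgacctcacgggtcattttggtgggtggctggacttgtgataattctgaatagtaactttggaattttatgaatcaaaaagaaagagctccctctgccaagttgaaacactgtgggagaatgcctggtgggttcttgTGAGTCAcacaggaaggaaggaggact
CRADD window, chr12:94179031-94179330, plus strand: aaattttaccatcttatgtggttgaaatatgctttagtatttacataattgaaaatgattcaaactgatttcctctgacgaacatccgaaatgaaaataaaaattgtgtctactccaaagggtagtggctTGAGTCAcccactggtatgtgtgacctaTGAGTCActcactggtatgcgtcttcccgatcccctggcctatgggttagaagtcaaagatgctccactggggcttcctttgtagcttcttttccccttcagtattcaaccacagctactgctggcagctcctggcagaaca
NID2 window, chr14:52547383-52547682, plus strand: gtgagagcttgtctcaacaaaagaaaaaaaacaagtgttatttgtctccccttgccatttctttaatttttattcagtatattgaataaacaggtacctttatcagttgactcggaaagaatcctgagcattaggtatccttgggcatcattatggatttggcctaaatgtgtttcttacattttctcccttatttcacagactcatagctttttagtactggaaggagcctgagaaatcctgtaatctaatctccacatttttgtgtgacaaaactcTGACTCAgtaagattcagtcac

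The LIPA window lay in the gene for lysosomal acid lipase and overlapped an exon of a LIPA transcript with no defined coding sequence. Its nearest protein-coding start, 5.31 kb away, was that of IFIT2, an interferon-induced gene. The AMOTL1 window was intronic, 88.4 kb from the start of its gene, which encodes an angiomotin family protein of cell junctions. In the CRADD window, also intronic, the AP-1 letters occurred 2 times and the RUNX letters TGTGGTT were present as well. The NID2 window was intergenic, 11.8 kb from the start of the gene for the basement membrane protein nidogen 2. FAIRE heights at these windows were 143, 148, 132 and 161, respectively; each is the tallest FAIRE peak with AP-1 letters in its H3K4me1 peak, so these heights are high by choice.

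AP-1 letters were found in 37.2% of the 22922 FAIRE windows inside H3K4me1 and outside H3K4me3 peaks (95% Wilson interval 36.6% to 37.8%). In windows of the same length placed 5 kb to each side the share was 5.20%, a ratio of 7.16. FAIRE windows inside H3K4me3 peaks held the letters in 13.3% of cases, those in neither kind of peak in 31.7%, and all 46552 windows in 30.7%. AP-1 letters therefore occurred at open sites with and without H3K4me1, and least often in H3K4me3 peaks. RUNX letters (TGTGGTT or AACCACA) were in 12.6% of the H3K4me1 windows and 5.75% of their side windows. TEAD letters (GGAATG or CATTCC) were in 23.8% against 16.2%, and forkhead letters (TGTTTAC or GTAAACA) in 6.85% against 4.39%. FAIRE windows in neither kind of peak were close, at 11.0% for RUNX, 21.4% for TEAD and 6.14% for forkhead letters. Over all FAIRE windows these shares were 10.6%, 21.4% and 6.03%, so the letters were not particular to H3K4me1 windows. Letters known from promoters were more frequent in H3K4me3 windows. SP/KLF letters (GGGCGG or CCGCCC) were in 3.58% of H3K4me1 windows, below the 4.25% of their side windows, and in 40.9% of H3K4me3 windows. ETS letters (CCGGAAG or CTTCCGG) were in 1.36% and 11.8% of these windows, and CRE letters (TGACGTCA, the same on both strands) in 0.279% and 2.28%. Both were above the sides of the H3K4me1 windows, at 0.715% for ETS and 0.109% for CRE. A match describes letters in a window and not the binding of a factor.

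**Figure D1:**
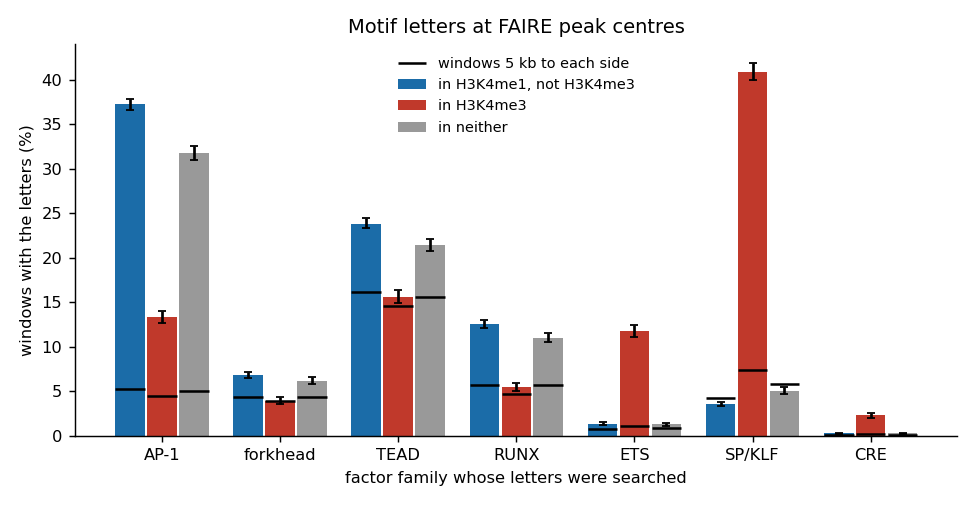
Share of 300-base windows at FAIRE peak centres that hold the letters of each factor family (bars, percent, with 95% Wilson intervals), split by whether the centre lies in an H3K4me1 peak and not an H3K4me3 peak, in an H3K4me3 peak or in neither. Black lines give the share in windows 5 kb to each side; AP-1 letters reach 37.2% in H3K4me1 windows and SP/KLF letters 40.9% in H3K4me3 windows.

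The AP-1 share was lower in higher scored H3K4me1 peaks. Scores are −log10 MACS p-values multiplied by 10. Under peaks with scores under 100, 40.0% of windows held the letters (38.7% to 41.2%), and under peaks with scores of 1000 or more, 29.5% did (25.4% to 34.0%). FAIRE peaks were taller under the same high-scored peaks, with median heights of 59.3 in the lowest score class and 89.8 in the highest.

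H3K4me1 peaks varied widely in size. Their widths ran from 879 to 40238 bp, with quartiles of 2269, 3041 and 4424 bp. Most peaks (14579, 54.5%) were 2 to 4 kb wide, 3958 were 1 to 2 kb, 6823 were 4 to 8 kb and 1410 (5.27%) were 8 kb or more, while 1 peak was under 1 kb. Scores reached 2123, with quartiles of 73.2, 114 and 209. Low scores were common: 11489 peaks (42.9%) scored under 100 and 156 (0.583%) scored 1000 or more. Wider peaks tended to have higher scores, with a Spearman correlation of 0.65 over the 26771 peaks, a description without a test because both values come from the same reads. The median width was 2277 bp in the lowest score class and 8963 bp in the highest. Width and score nonetheless parted in places, and 173 peaks of 8 kb or more scored under 100.

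The 5 highest scored H3K4me1 peaks were 8959 to 12283 bp wide. The highest score, 2123, belonged to the peak at chr10:91033884-91046166, which covered the IFIT2 start and part of LIPA. Next was an intergenic peak at chr14:54672279-54681237 (score 2118), 187 kb from the start of CDKN3, a phosphatase of cyclin-dependent kinases. The peaks at chr11:94520661-94531727 (2034), chr3:62585612-62595662 (2001) and chr12:94176143-94186525 (1835) had their centres in AMOTL1, in CADPS, which acts in vesicle secretion, and in CRADD, a death domain adaptor. Each of these peaks met 1 H3K27Ac peak and 3 to 5 FAIRE peaks, and of the 5 only the one near CDKN3 met an H3K4me3 peak.

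The widest peaks were others, and none of their scores was above 237.6. The peak at chr5:52296205-52336442 spanned 40238 bp of ITGA2, a collagen-binding integrin subunit, and had a score of 136.1. It met 3 H3K27Ac peaks and 7 FAIRE peaks. B4GALT5, a galactosyltransferase gene, held a peak of 28909 bp at chr20:48300760-48329668, and MAGI1, a junction scaffold gene, held one of 28781 bp at chr3:65930575-65959355. A peak of 28204 bp at chr7:43673407-43701610 lay across STK17A and COA1. At CDCP1, a transmembrane substrate of Src kinases, the peak at chr3:45159043-45186807 was 27765 bp wide and met 8 FAIRE peaks. None of these wide peaks covered the most upstream start of a protein-coding gene, while other transcript starts of COA1 and CDCP1 lay inside theirs. Starts of MAGI1-IT1 and of the gene model ENSG00000286048 lay inside the peaks at MAGI1 and ITGA2.

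Co-occurrence with H3K27Ac and FAIRE was more frequent in wider and in higher scored H3K4me1 peaks. H3K27Ac was shared by 43.1% of H3K4me1 peaks of 1 to 2 kb (41.5% to 44.6%), 72.4% of those of 2 to 4 kb, 93.1% of those of 4 to 8 kb and 98.9% of those of 8 kb or more (98.3% to 99.4%). FAIRE followed the same order at 46.8%, 68.2%, 87.3% and 95.7%. A wider peak has more bases to share, and with the H3K4me1 centre required inside the other peak, the FAIRE shares from the 1 to 2 kb class to the widest were 38.6%, 54.1%, 41.3% and 30.5%, which no longer followed width. For H3K27Ac the same requirement gave 41.7% in the 1 to 2 kb class and 85.7% in the widest. Within the 2 to 4 kb class, where width varied less, the H3K27Ac share was 61.0% at scores under 100, 77.2% at 100 to 200 and 92.3% at 200 to 500. All 156 peaks with scores of 1000 or more met both an H3K27Ac and a FAIRE peak.

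H3K4me3 followed that order by width but not by score. By score class it was shared by 18.2% of H3K4me1 peaks under 100 (17.5% to 18.9%), 13.8% at 100 to 200 and 13.6% at 200 to 500 (12.7% to 14.5%). By width the share ran from 9.40% at 1 to 2 kb to 35.7% at 8 kb or more. With the H3K4me1 centre required inside the H3K4me3 peak, the shares from the 1 to 2 kb class to the widest were 7.45%, 7.24%, 9.04% and 10.5%. Inside a width class it was lower at higher scores: among peaks of 4 to 8 kb it was 40.7% under 100, 25.8% at 100 to 200, 16.1% at 200 to 500 and 9.55% at 500 to 1000. Among the 173 widest peaks of low score, 58.4% met an H3K4me3 peak. With the centre required inside the H3K4me3 peak, the shares under 100 and at 200 to 500 were 10.8% and 5.12%, in the same order.

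**Figure D2:**
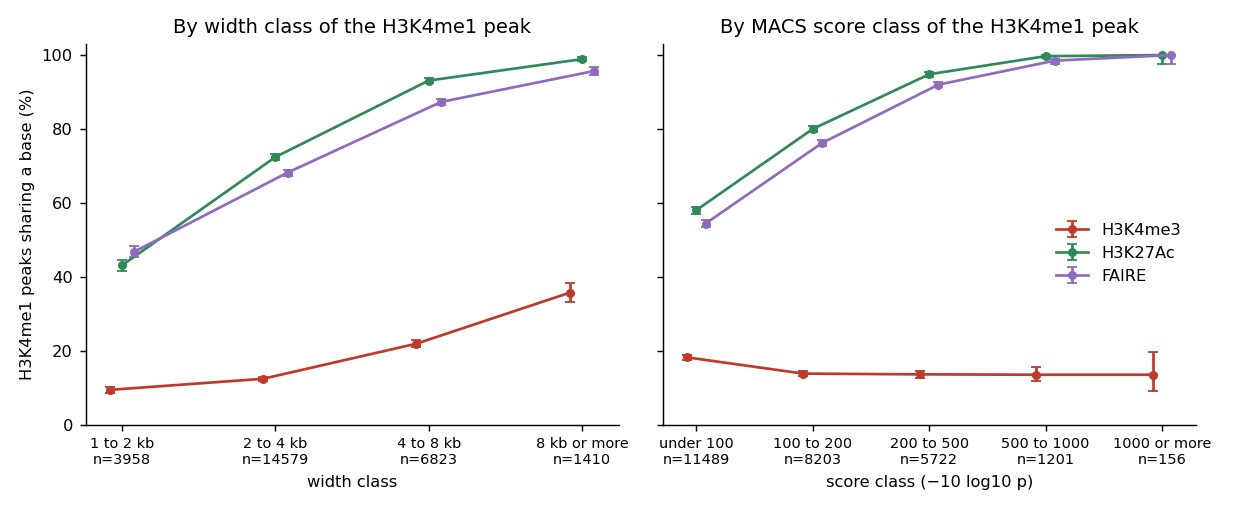
Share of H3K4me1 peaks (percent) that share at least 1 base with an H3K4me3, H3K27Ac or FAIRE peak, by width class (left, without the 1 peak under 1 kb) and by score class (right); points are shares, bars 95% Wilson intervals, and n is the number of H3K4me1 peaks. H3K27Ac is at 43.1% in the narrowest class shown and 98.9% in the widest, and H3K4me3 at 18.2% in the lowest score class and 13.5% in the highest.

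Open sites lay within most H3K4me1 peaks. A single FAIRE peak was met by 14313 peaks (53.5%), 2 by 3580, 3 by 883 and at least 4 by 327, while 7668 (28.6%) met none. In the widest class 78.4% of peaks met 2 or more FAIRE peaks, against 1.26% of those of 1 to 2 kb. FAIRE covered 47.3% of H3K4me1 peak centres, 34.4% of positions 500 bp to the right and 4.0% of those 5 kb to the right. No other list met 3654 H3K4me1 peaks (13.6%), and these made up 35.6% of the 1 to 2 kb class and 0.496% of the widest class.

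H3K4me1 peaks were mostly away from annotated starts. From the peak centre to the nearest GENCODE transcript start of any gene type the median was 9560 bp, with quartiles of 2820 and 24625 bp, over the 26767 peaks on annotated chromosomes. The median was 7196 bp for FAIRE, 4399 bp for H3K27Ac and 251 bp for H3K4me3. Centres within 1 kb of a start made up 11.0% of the H3K4me1 list, against 76.2% of the H3K4me3 list. At 5 to 20 kb lay 9324 H3K4me1 peaks (34.8%), at 20 to 50 kb 5368, at 50 to 100 kb 2026 and at 100 kb or more 712 (2.66%). In all, 34.9% of H3K4me1 centres were within 5 kb of a start, a share of 16.6% when only starts of protein-coding transcripts were used. A start of any kind lay inside 17.9% of H3K4me1 peaks and 77.4% of H3K4me3 peaks.

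**Figure D3:**
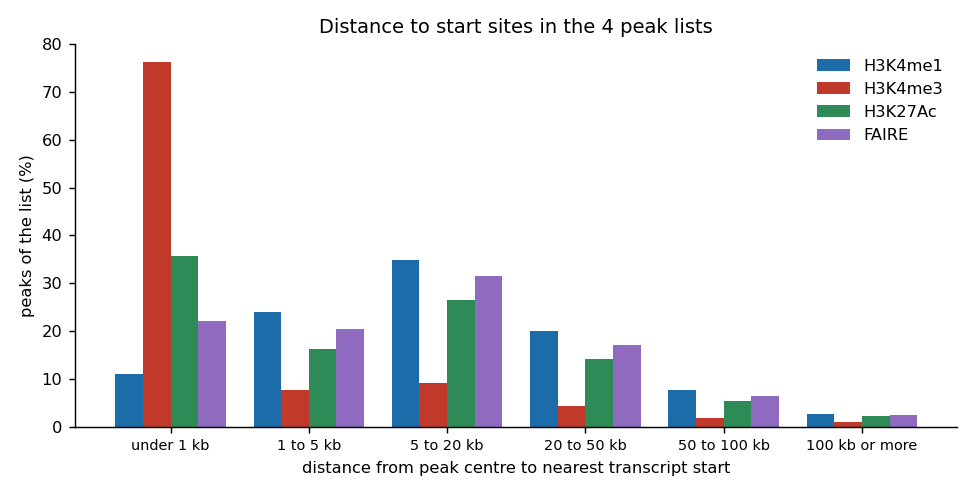
Distance from the centre of each peak to the nearest transcript start, in classes, as percent of the peaks of each list (bars). H3K4me3 has 76.2% of its peaks under 1 kb, and H3K4me1 has its largest class, 34.8%, at 5 to 20 kb.

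Peaks near and far from starts differed more in H3K4me3 than in the other marks. H3K4me3 was shared by 39.7% of H3K4me1 peaks centred within 1 kb of a start, by 33.2% at 1 to 5 kb and by 5.71% at 5 to 20 kb. For H3K27Ac these shares were 82.3%, 81.2% and 71.6%, and beyond 100 kb 71.3%. FAIRE was met by 69.0% of the nearest and 76.1% of the farthest class. Median width was 3348 bp within 1 kb and 2572 bp at 100 kb or more, while the median score was 105 in the first class and 118 in the last. Base composition differed with distance too. The median GC content of the peaks was 43.1% within 1 kb of a start and 38.8% at 100 kb or more, and that of same-length stretches 5 kb to each side was 41.8% and 37.7%. Over all placed H3K4me1 peaks it was 41.3%, against 40.8% to the sides. The median observed to expected ratio of CpG was 0.300 in the 4181 placed peaks that met H3K4me3 and 0.190 in the others.

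At promoters with H3K4me3, H3K4me1 covered the start less often than nearby positions on either side. The start of each of 20163 protein-coding genes was taken as its most upstream position, and 12014 of these starts lay inside an H3K4me3 peak. H3K4me1 covered 6.39% of those 12014 starts, and 3.04% when it was restricted to p of 1e-10 or lower. Coverage was higher on both sides, reaching 9.67% at 1000 bp upstream and 13.9% at 1900 bp downstream, and it returned to 4.46% at 10 kb upstream and 5.41% at 10 kb downstream. H3K27Ac covered 90.3% of the same starts and FAIRE 39.1%. At the 8149 starts outside H3K4me3 peaks there was no such dip, with 3.83% of starts covered by H3K4me1 and 3.39% of positions at 1 kb upstream.

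**Figure D4:**
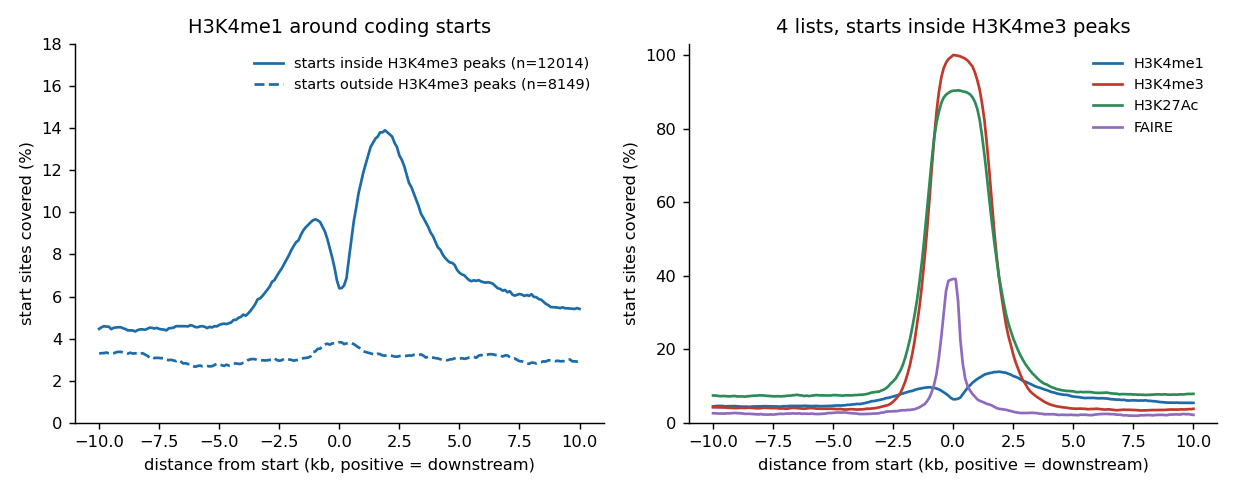
Share of protein-coding gene starts (percent) covered by a peak at each distance from the start (kb, positive downstream). Left, H3K4me1 at starts inside and outside H3K4me3 peaks, with a dip to 6.39% at marked starts between 9.67% upstream and 13.9% downstream; right, all 4 lists at starts inside H3K4me3 peaks.

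Flanking was mostly on 1 side. Within 5 kb, 1210 of the 12014 marked starts (10.1%, 9.55% to 10.6%) had H3K4me1 downstream only, 593 (4.94%) upstream only and 257 (2.14%) on both sides. H3K4me1 covered 768 starts, and the remaining 9186 (76.5%) had no H3K4me1 peak at the start or within 5 kb. Together 17.1% of marked starts were flanked without being covered, and restricting H3K4me1 to p of 1e-10 or lower gave 7.58%. A flank of 5 kb holds many positions and a start a single one, so flanked and covered shares are not directly comparable. Of the 8149 starts outside H3K4me3 peaks, 223 were flanked downstream only, 199 upstream only and 24 on both sides, while 312 were covered. Among marked starts, the flanked ones sat in wider H3K4me3 peaks. Median widths were 3655 bp for both sides, 3358 bp for upstream only and 3316 bp for downstream only. The median was 2886 bp where H3K4me1 was absent and 2856 bp where it covered the start. FAIRE lay within 500 bp of 68.1% of the marked starts flanked on both sides and 42.4% of those without H3K4me1, and H3K27Ac covered 99.6% and 88.1%. With upstream flanking only these shares were 54.5% for FAIRE and 96.8% for H3K27Ac, and with downstream only 56.4% and 98.8%. Genes flanked on both sides included CAV1, the main coat protein of caveolae, and CCN1, a matricellular YAP target. H3K4me1 covered the starts of VIM, ANXA1, ZEB1 and TP63, all inside H3K4me3 peaks, and those of WWTR1 and SPARC, outside them.

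H3K4me1 was also counted at the edges of H3K4me3 peaks. It covered 14% of the centres of 17994 H3K4me3 peaks, 17.4% of positions 500 bp inside an edge and 17.3% of the edges. Beyond an edge it covered 15.7% of positions at 500 bp and 5.79% of those at 5 kb. Of the 4182 H3K4me1 peaks that met an H3K4me3 peak, 11 lay wholly inside, and the median share of their width held in common was 41.4% (quartiles 28.6% and 54.3%). H3K4me1 centres at 1 to 5 kb from the nearest protein-coding gene start were downstream of it in 63.9% of 2296 cases, while within 1 kb the share was 47.7% of 488. Farther out it was 55.5% at 5 to 20 kb, 57.1% at 20 to 50 kb, 59.1% at 50 to 100 kb and 59.3% at 100 kb or more.

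Of the 20163 protein-coding genes, 12608 (62.5%) had at least 1 H3K4me1 peak within 50 kb of their bounds and 2154 (10.7%) had at least 5. The median was 1 peak per gene and the 99th percentile 13. Longer genes have longer windows, and the number of peaks went with window length across genes, which are not independent (Spearman correlation 0.37). The 16 genes with the most peaks, 15 plus a tie in the last place, had a median window of 866 kb against 127 kb for all.

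RUNX1, a transcription factor of blood formation that is also expressed in breast epithelium, had the most H3K4me1 peaks, 43 in a window of 1317 kb on chromosome 21. Of these 36 met H3K27Ac, 39 met FAIRE and 5 met H3K4me3, and the highest score was 543. FOXP1, a forkhead repressor, had 36 peaks, all of them also counted for the overlapping gene model ENSG00000285708 (38 peaks), which overlaps FOXP1 and EIF4E3. LPP, a LIM protein of focal adhesions, had 34 peaks, of which 9 met neither H3K27Ac nor FAIRE. PALLD, an actin-bundling protein, had 32, and DST, a plakin that links filaments to hemidesmosomes, had 28 with a highest score of 1096. ARHGAP26 and ARHGAP24 had 32 and 25. ARHGAP26 had 11 peaks with neither H3K27Ac nor FAIRE, the most in this group.

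The rest of the group was more varied. CAV2, a caveolin, had 26 peaks in the shortest window of the group, 321 kb. RAD51B, which acts in homologous recombination, IQCJ-SCHIP1 and the cAMP phosphodiesterase gene PDE4D had 26 each, in windows of 1010, 1035 and 1653 kb. The gene model ENSG00000282278, which overlaps FIP1L1, GSX2 and PDGFRA, had 28. PALM2AKAP2, an anchor of protein kinase A, FRMD4A, a FERM domain protein of cell polarity, and TMEM132D had 25 each. None of the 25 peaks of TMEM132D met H3K4me3, and its window held no H3K4me3 peak at all, yet 21 met H3K27Ac. When H3K4me1 was restricted to p of 1e-10 or lower, 10 of the 16 genes stayed in the group, and RUNX1 led it with 29.

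Ranking by density named other genes, and 1 gene, CAV2, was in both groups. Among genes with at least 5 peaks, GPR15, a chemoattractant receptor gene, had 10.7 H3K4me1 peaks per 100 kb, followed by LARP6, which binds collagen mRNA (9.60), CAV1 (9.55) and the innate immune receptor gene TLR4 (9.12). CPOX, a heme synthesis enzyme next to GPR15, had 8.76, and 9 peaks were shared by the windows of these neighbours. The stress-response gene GADD45A had 8.73, the zinc finger gene ZNF281 8.56, IFIT1B 8.40, DCBLD2 8.26 and CAV2 8.10. The median over all protein-coding genes was 0.807 peaks per 100 kb. CAV1 and CAV2 lie side by side on chromosome 7 and shared 7 peaks. Both GPR15 and IFIT1B had no peak within their own bounds, so every peak counted for them lay in the flanks.

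**Figure D5:**
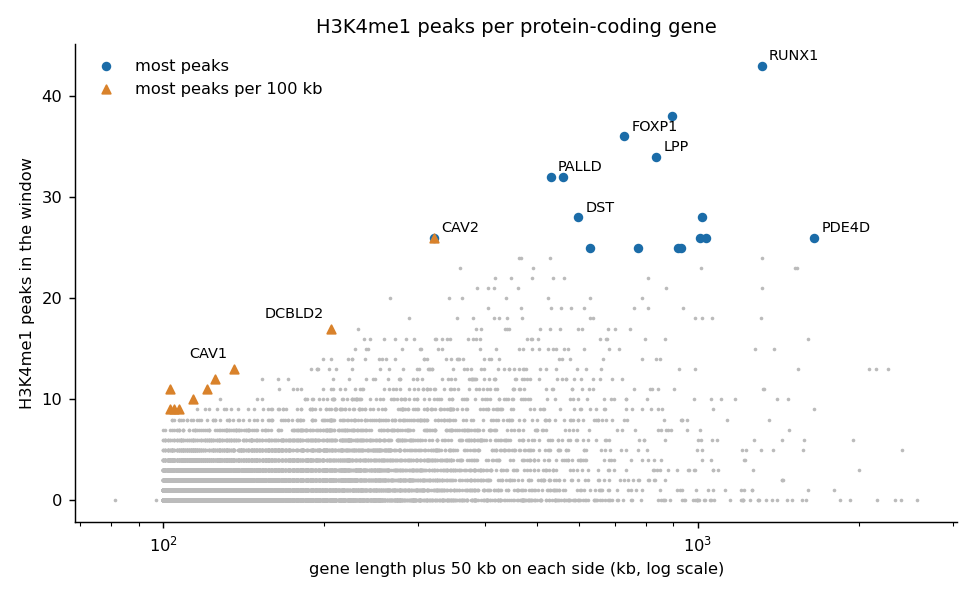
Number of H3K4me1 peaks in each protein-coding gene's window (vertical axis) against the length of the gene plus 50 kb on each side (kb, log scale); each grey point is a gene. Blue circles mark the 16 genes with the most peaks, led by RUNX1 at 43, and orange triangles the 10 with the most peaks per 100 kb, among them CAV1 with 13 peaks in 136 kb.

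Marker genes of the cell line and of other cell types were counted in the same way, beside the 62.5% of all protein-coding genes with a peak. All 16 genes of the mesenchymal and basal B list had at least 1 H3K4me1 peak, with a median of 4. CAV1 and the hyaluronan receptor gene CD44 had 13 each, the ERM protein gene MSN 8 and the annexin gene ANXA1 7, while FN1 and PLAUR had 1 each. Of the peaks counted over this list, 62 of 77 met H3K27Ac, beside 74.7% of all H3K4me1 peaks. The same counts were 23 of 27 for the luminal list, 18 of 20 for epithelial adhesion, 29 of 41 for basal keratin and myoepithelial genes, 22 of 29 for AP-1, 48 of 62 for YAP and TEAD, 9 of 10 for blood cells, 10 of 16 for neurons and 12 of 18 for liver, so a share above that of all peaks was not particular to the mesenchymal list. Among 16 luminal breast genes 10 had a peak and the median was 1. No H3K4me1 peak lay within 50 kb of the luminal regulators GATA3, FOXA1 and XBP1 or of the progesterone receptor gene PGR. MLPH had 6 and the estrogen receptor gene ESR1 had 4. The starts of GATA3, FOXA1, XBP1 and PGR nonetheless lay inside H3K4me3 peaks, while that of ESR1 did not. The windows of GATA3 and XBP1 held 5 and 2 H3K27Ac peaks, and those of FOXA1 and PGR none. Starts inside H3K4me3 peaks numbered 12 of 16 in the luminal list and 13 of 16 in the mesenchymal list. The cell line is known as mesenchymal and hormone receptor negative; an H3K4me1 peak lay within 50 kb of every gene of the first list and of 62.5% of the luminal list, a share equal to the background.

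Of 12 epithelial adhesion genes 10 (83.3%) had an H3K4me1 peak, and the median was 1.5 against 1 for all protein-coding genes. The desmosome gene DSP had 4, EPCAM and GRHL2 had 3 each, CDH1, which encodes E-cadherin, had 1, and ESRP1 and LAD1 had none. The basal keratin and myoepithelial list was split, with 13 peaks at TP63 and 7 at COL17A1, and none at KRT5, KRT14, KRT6A or CDH3, among others. In the AP-1 list 9 of 12 genes had a peak. JUN had 6 with a highest score of 881, MAFF and BATF3 had 5 each, and FOS, JUNB and JDP2 had none although each start lay inside an H3K4me3 peak. The YAP and TEAD list had 10 of 12 genes with a peak and a median of 4. Its highest counts were at the coactivator genes WWTR1 (13) and YAP1 (12), at TEAD1 (10) and at CCN1 (8), and all 8 peaks at CCN1 met both H3K27Ac and FAIRE. TEAD2 and TEAD3 had none.

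Markers of other tissues were counted too. Of 12 blood cell genes 3 had a peak, and PTPRC, which encodes CD45, had 6, all of which met H3K27Ac. Of 12 neuronal genes 6 had a peak, with 9 at SNAP25, a synaptic fusion protein gene, of which 3 met H3K27Ac and 5 met neither H3K27Ac nor FAIRE. Of 12 liver genes 8 had a peak, 4 at APOA1 and 3 each at AHSG and FGB, and none at HNF4A or APOB. A peak within 50 kb can belong to a neighbouring gene, so these counts describe neighbourhoods.

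H3K4me1 peaks also formed runs. When neighbours with gaps of at most 25/2 kb were joined, 375 runs of at least 5 peaks held 2280 H3K4me1 peaks (8.52%), and 12773 peaks (47.7%) stood alone. The same share was 8.85% for H3K27Ac, 15% for FAIRE and 2.41% for H3K4me3, lists that differ in length. With gaps of at most 5 kb and 25 kb the H3K4me1 share was 1.53% and 22.8%, and at p of 1e-10 or lower it was 3.96%. The runs with the most peaks had 14. They lay in DST (chr6:56505729-56638658), in EXT1, a heparan sulfate polymerase gene (chr8:118821595-118924542), and in a stretch that overlapped no protein-coding gene (chr12:76082764-76187081). The middle of that stretch was 230 kb from the start of KRR1. Runs of 13 peaks lay at ARHGAP29, at ATXN1 and between genes on chromosome 1, 114 kb from TNFSF18. In the ARHGAP29 run all 13 peaks met H3K27Ac and 6 met FAIRE, and the median score was 432. That of the EXT1 run was 131.

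Chromosomes differed in H3K4me1 density. Chromosomes 12, 4 and 1 had 12.3, 12.1 and 11.6 peaks per Mb of known sequence, and chromosomes 1 to 22 and X together 9.44. The lowest densities were 2.73 on X, 4.35 on 19, 5.16 on 18 and 5.41 on 16. Chromosome 19 was the densest in H3K27Ac (22.9 per Mb) and H3K4me3 (20.7 per Mb), so it held 0.190 H3K4me1 peaks for each H3K27Ac peak, against 1.01 on chromosome 4 and 0.714 over all. The H3K4me1 peaks on chromosome 19 were also wider, with a median of 4964 bp, and 91.4% of them met H3K27Ac. On X 85.0% did, and over the whole list 74.7%. Chromosome copy number was not used here, and its part in these densities was not tested.

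Long stretches lacked the mark. The longest by known sequence, at chrX:23921075-38072915, had 14.1 Mb and 44 protein-coding genes without an H3K4me1 peak, yet it held 21 H3K4me3, 29 H3K27Ac and 49 FAIRE peaks. A stretch across the centromere of chromosome 9, at chr9:38684477-71727474, had 47 protein-coding genes and 48 H3K4me3 peaks. Another on chromosome 9, at chr9:6554121-16028150, had 9.47 Mb, 42 H3K27Ac and 25 FAIRE peaks. The stretch of 4.48 Mb at chr19:19703990-24235042 had 42 protein-coding genes, 44 H3K4me3 peaks and 43 H3K27Ac peaks.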

How the data were processed

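The authors aligned ChIP-seq and FAIRE-seq reads to hg19 with BWA, removed duplicates, combined the 2 samples of each assay and called histone peaks with MACS against the ChIP input and FAIRE peaks with FindPeaks; the submitters' processing notes also name TopHat and HOMER without a role. Deposited MACS scores are −log10 p-values multiplied by 10. The deposited FAIRE value is the height of the signal as the authors gave it.

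Peaks were compared by at least 1 shared base with numpy 2.4.6 and pandas 2.3.3, checked against bedtools 2.31.1 on simulated intervals. Wilson intervals came from scipy 1.17.1. Annotation was GENCODE version 44 mapped to GRCh37, the build of the files, and 4 H3K4me1 peaks on unplaced contigs entered no distance. No test was run. Named were the 15 protein-coding genes with the most peaks and the 10 densest (with ties), genes of fixed lists with the most and fewest peaks, the 5 highest scored and 5 widest peaks, and the 5 runs with the most peaks, with ties. Displayed sequences were taken from chromosomes other than 8. Some genes of the fixed lists are not reported here. Genes at promoter states, stretches without peaks and the chromosomes named were chosen after their values were seen. The members and lists were chosen with earlier results of these data known. Alternatives were p at or under 1e-10, other windows, gaps, start sites and overlap rules; canonical starts were added after seeing the data.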

Additional observations from a re-analysis of the deposited data

How the results depend on the processing

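No paired analysis was possible because each mark has 1 list made from combined replicates, and no replicate could be left out. Alternative values were set against the 95% Wilson interval of a share, the 95% binomial interval of the median width, or 1.5 times a count; 36 of 51 fell outside and 15 did not. The cause of a difference was not tested where the alternative's construction does not give it.

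When H3K4me1 was restricted to p of 1e-10 or lower, the median width was 3760 bp, 33.0% of centres were within 5 kb of a start, 7.58% of marked starts were flanked and 3.04% covered, 44.8% of coding genes had a peak, 10 of the 16 leading genes stayed, and 3.96% of peaks were in runs. Using protein-coding transcripts or the nearest edge gave 16.6% and 41.5% within 5 kb. Flanks of 2 kb and 10 kb gave 13.1% and 24.3% flanked starts; all gene types gave 16.2% flanked and 7.39% covered. Canonical transcript starts, chosen after seeing the data, gave 17.6% and 6.13%. Gene windows of 20 kb and 100 kb gave 48.5% and 76.2% of genes with a peak, and centres inside the window 61.7%; by density 1 of the 16 genes stayed. With the H3K4me1 centre inside the other peak, H3K27Ac in the widest class was 85.7%, FAIRE in the 1 to 2 kb and widest classes 38.6% and 30.5%, and H3K4me3 in the 1 to 2 kb and widest classes 7.45% and 10.5%, and at scores under 100 and at 200 to 500 10.8% and 5.12%. Other peaks within 1 kb gave 45.1% (H3K27Ac) and 49.9% (FAIRE) in the 1 to 2 kb class. Stricter H3K27Ac peaks gave 32.3% and 98.1% in the 1 to 2 kb and widest classes, and stricter H3K4me3 peaks 8.46% and 31.8% in these width classes and 16.9% and 10.9% in the same score classes as above. Gaps of 5 kb and 25 kb put 1.53% and 22.8% of peaks in runs. Windows of 200 and 500 bases held AP-1 letters in 27.6% and 48.9% of cases, against 3.49% and 8.60% to the sides. Read depth is not given in the peak lists, so what it limits is unknown.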
